A study of Mus musculus with 6 samples.

Results

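The miR-148 and miR-152 family comprises 3 related hairpins, miR-148a, miR-148b and miR-152, each giving a 3p and a 5p mature strand. Its 6 mature miRNAs were taken by name from the 1542 entries of a kidney small RNA count table; all 6 were found, and 3 of them, the 3p strands, had enough counts to be among the 451 miRNAs tested. The family was chosen by name with earlier results of these libraries known, including the strain differences and the unusual profile of 1 control library, so the strain comparison below is a description of these libraries.

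The libraries came from kidneys of female mice 17 weeks old. The 3 control libraries were from C57BL/6 mice and the 3 others from MRL/lpr mice, given in the labels as genotype MRL/MpJ-Fas<lpr>/J. MRL/lpr mice carry the lpr allele of Fas, a death receptor that removes activated lymphocytes, and the MRL background, and with age they develop lupus-like autoimmunity that reaches the kidney. The controls differ from them in background, lpr allele and disease together, and these cannot be told apart here. Whether every library is its own animal is not stated in the labels, and p-values therefore measure the spread between samples only.

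A microRNA (miRNA) guides the Argonaute protein to messenger RNAs that pair with its seed, the bases near its 5′ end, and lowers their output. miRNAs with the same seed can share targets. The 3p strands of this family are known for limiting Dnmt1, the DNA methyltransferase that maintains methylation through cell division. In CD4 T cells from lupus patients and lupus-prone mice miR-148a has been linked to loss of DNA methylation through this target. In mouse B cells, raised miR-148a lets self-reactive immature B cells escape deletion, with Gadd45a and Bcl2l11 (Bim) among its targets. miR-152 and miR-148b lie in introns of the paired coatomer genes Copz2 and Copz1.

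The 6 mature sequences are shown with the seed (bases 2 to 8) in capitals, 5′ to 3′, to show which strands share a seed and how little separates them; all 6 matched RefSeq entries (GRCm38.p6).
mmu-miR-148a-3p: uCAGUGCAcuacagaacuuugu
mmu-miR-148b-3p: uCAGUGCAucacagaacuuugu
mmu-miR-152-3p: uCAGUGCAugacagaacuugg
mmu-miR-148a-5p: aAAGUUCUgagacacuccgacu
mmu-miR-148b-5p: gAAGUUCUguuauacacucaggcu
mmu-miR-152-5p: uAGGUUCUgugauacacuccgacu

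The 3 strands of the 3p side share the seed CAGUGCA, and no other of the 1679 mature miRNA names in the RefSeq table has it. The 5p strands of miR-148a and miR-148b share AAGUUCU, and miR-152-5p alone has AGGUUCU. Outside the seed the 3p strands differ at few positions, counted from 1 at the 5′ end. From miR-148a-3p to miR-148b-3p the differences are C9U and U10C. From miR-148a-3p to miR-152-3p they are C9U, U10G and U20G, and miR-152-3p is shorter, with 21 bases against 22. How reads that fit more than 1 of these strands were assigned is not given in the sources, and the split of counts between members is less certain than their sum.

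The 3 hairpins lie on separate chromosomes. The miR-148a hairpin (chr6:51269812-51269910, minus strand, GRCm38.p6) overlaps no other annotated gene in GENCODE M21, and its nearest coding gene is Nfe2l3, 162760 bases away. The miR-148b hairpin (chr15:103285125-103285221, plus strand) lies in an intron of Copz1 on the same strand. The miR-152 hairpin (chr11:96850393-96850465, plus strand) lies in an intron of Copz2 on the same strand.

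To show what a match to the shared seed looks like, the 3′ untranslated regions (UTRs) of the 3 target genes named above were searched on the transcript strand for TGCACTG, the reverse complement of the seed in DNA letters, and for its longer form TGCACTGA. In 30-base windows with the match in capitals, 1 longer match was found in each gene; Bcl2l11 held 3 matches to TGCACTG in all.
Gadd45a: ctgaaccaaatTGCACTGAagttttgaaat
Bcl2l11: cctttacgtttTGCACTGAtgaattttgac
Dnmt1: agagccccacgTGCACTGAtgtttttaacc

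The windows lie at chr6:67035609-67035638 (minus strand) for Gadd45a, chr2:128162398-128162427 (plus strand) for Bcl2l11 and chr9:20907480-20907509 (minus strand) for Dnmt1, in the longest GENCODE M21 3′ UTR of each gene (GRCm38). Of 21020 genes with a 3′ UTR, 3.59% held TGCACTGA and 12.7% held TGCACTG, which is contained in it. The genes were chosen as known targets, no messenger RNA was measured here, and a match is a description of sequence.

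The 6 libraries held 5259528 to 6773829 counts each, which leaves the 5p strands, at a handful of counts, with a large counting error. C57BL/6 replicate 2 stood apart from the other libraries in marker miRNAs, so the values that rest on it are given with and without it. Kidney epithelium miRNAs (8 listed, 8 detected) summed to 127639 to 144012 CPM in 5 libraries and to 99307 CPM in C57BL/6 replicate 2. The erythrocyte list summed to 594 CPM there and to 2841 to 4305 CPM in the other libraries. Mesenchymal and endothelial lists summed to 26564 to 42805 CPM and 58064 to 82924 CPM. Within the mesenchymal list, miR-199a-3p and miR-199b-3p had 242 and 15070 counts in C57BL/6 replicate 3. They had 13192 and 184 in replicate 1 and 36207 and 228 in replicate 2, and miR-199a-3p led in each MRL/lpr library. The split of counts in that pair therefore differed by library. The split within the miR-148 and miR-152 family is given by library below, and whether the assignment of reads affected either split was not tested.

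miR-148a-3p was the member whose level differed most between the strains, and in MRL/lpr kidneys it was the most abundant of the family. In C57BL/6 it had 319, 1223 and 366 counts in replicates 1, 2 and 3, or 65.3, 196.5 and 57.02 CPM (counts set to 1 library total, with TMM scaling). In MRL/lpr it had 2539, 1071 and 1183 counts, or 358.5, 207.9 and 195.8 CPM. C57BL/6 replicate 2 stood about level with MRL/lpr replicates 2 and 3, while C57BL/6 replicates 1 and 3 were well below every MRL/lpr library, so the groups overlapped only through C57BL/6 replicate 2. In bulk tissue, more cells that carry a miRNA and more of it per cell cannot be told apart.

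The mean of miR-148a-3p was 106 ± 78.2 CPM over the C57BL/6 libraries and 254 ± 90.6 CPM over the MRL/lpr libraries (SD, n = 3). The fitted level was 2.39-fold higher in MRL/lpr (log2 fold change 1.26 ± 0.53 SE), and it did not pass the threshold (edgeR quasi-likelihood test over all miRNAs, Benjamini-Hochberg adjusted p = 0.243). Without C57BL/6 replicate 2 the fitted level was 4.24-fold higher (log2 fold change 2.08 ± 0.31 SE; edgeR adjusted p = 0.00520), and the groups no longer overlapped, as for 44.7% of the 470 miRNAs then tested. That library is the highest of its group for this miRNA, so leaving it out widens the difference by construction.

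miR-152-3p ran the other way, with lower levels in most MRL/lpr libraries. Its C57BL/6 libraries had 1036, 1464 and 1085 counts, or 212, 235 and 169 CPM. Its MRL/lpr libraries had 1092, 710 and 1124 counts, or 154, 138 and 186 CPM. The groups overlapped, since MRL/lpr replicate 3 lay above C57BL/6 replicate 3. The means were 205 ± 33.6 and 159 ± 24.5 CPM (SD, n = 3), with a log2 fold change of -0.37 ± 0.22 SE (edgeR adjusted p = 0.369), and -0.23 ± 0.21 without C57BL/6 replicate 2.

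miR-148b-3p was the least abundant 3p strand and showed no separation of the strains. It had 35.2, 26.7 and 20.6 CPM in the control strain and 38.5, 21.3 and 38.7 CPM in MRL/lpr, so MRL/lpr replicate 2 lay among the controls. The log2 fold change was 0.26 ± 0.30 SE (edgeR adjusted p = 0.661), an error wide enough to hold a modest difference in either direction.

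**Figure D1:**
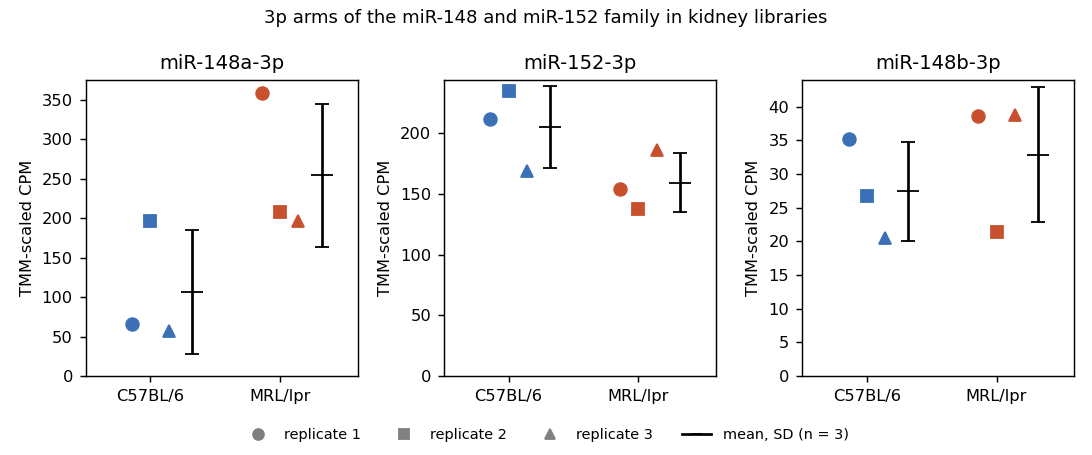
TMM-scaled CPM of miR-148a-3p, miR-152-3p and miR-148b-3p in each library, with the mean and SD of each strain (n = 3); each panel has its own vertical axis starting at 0. For miR-148a-3p the C57BL/6 replicate 2 library, at 196.5 CPM, sits with MRL/lpr replicates 2 and 3, while the other C57BL/6 libraries are at 65.3 and 57.02 CPM.

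None of the 3 members tested passed the threshold in the edgeR test, where 6.21% of all 451 miRNAs did (28 miRNAs). At an unadjusted p under 0.05 the count of members was also 0, and limma-voom gave 0 (21 miRNAs called in all). DESeq2, which fitted all 6 members, gave 1, miR-148a-3p (adjusted p = 0.0353), where it called 51 miRNAs in all. Without a filter on low counts edgeR tested all 6 members and also called miR-148a-3p (adjusted p = 0.0187), where it called 64 in all. Without C57BL/6 replicate 2, miR-148a-3p was the 1 member called, where 11.5% of 470 miRNAs were called, so the call depends on the test, the filter and that library. Groups that do not overlap were seen for none of the 3 members, against 28.8% of all miRNAs tested.

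**Figure D2:**
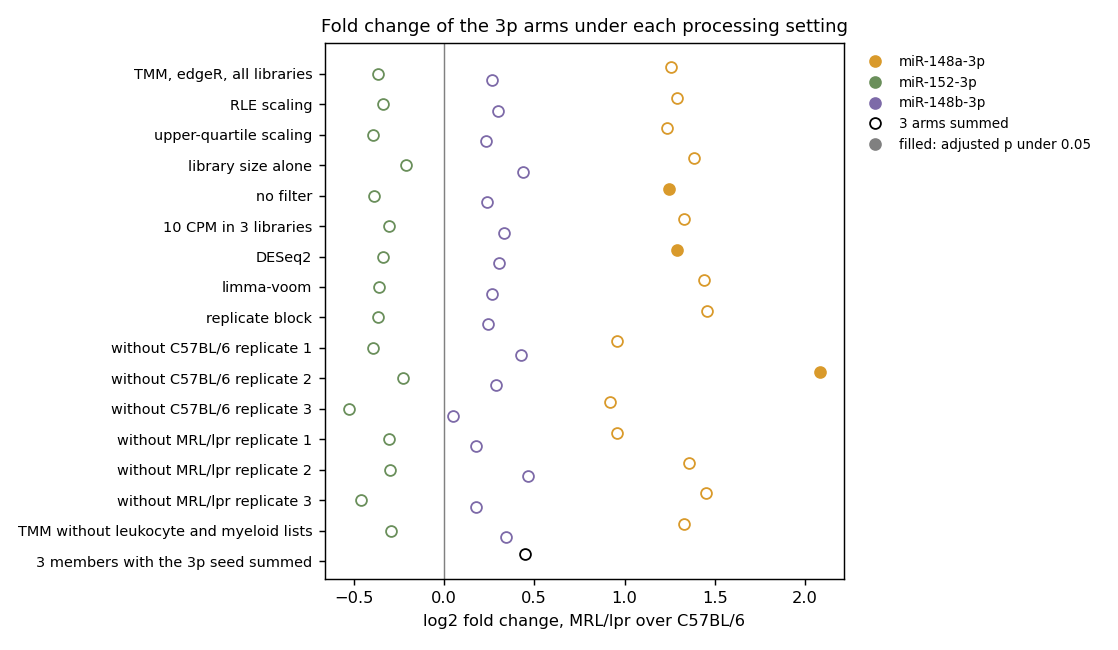
Fitted log2 fold change (MRL/lpr over C57BL/6) of the 3 tested members under each processing setting, with filled points where the adjusted p was under 0.05. miR-148a-3p lies from 0.92 to 2.08 in the settings that keep the members separate and is filled in 3 of them, miR-152-3p is below 0 in each of those settings, and the sum of the 3 strands lies at 0.45.

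The make-up of the family also differed between the strains. In each C57BL/6 library miR-152-3p was the leading 3p strand, and in each MRL/lpr library miR-148a-3p was. Of the 3p counts of the family, miR-148a-3p took 20.9%, 42.9% and 23.1% in C57BL/6 replicates 1, 2 and 3, and 65.04%, 56.6% and 46.6% in MRL/lpr. The lowest MRL/lpr share therefore lay above the highest C57BL/6 share, that of replicate 2. miR-152-3p took 67.8%, 51.3% and 68.5% across C57BL/6 and 28.0%, 37.5% and 44.2% in MRL/lpr, without overlap. The shares add up to the whole and that of miR-148b-3p is small, so this is largely the same result from the other side. For 30.9% of the 450 other miRNAs tested, the ratio to miR-152-3p did not overlap between the strains. The share of miR-148b-3p overlapped, with a mean of 8.47% ± 2.73 over the C57BL/6 and 7.34% ± 1.72 over the MRL/lpr libraries (SD, n = 3).

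Expressed as a ratio of counts within a library, which needs no scaling between libraries, miR-148a-3p stood at 0.308, 0.835 and 0.337 times miR-152-3p in the control strain and at 2.33, 1.51 and 1.05 times in MRL/lpr. The ratio was below 1 in 3 of 3 C57BL/6 libraries and above 1 in 3 of 3 MRL/lpr libraries, C57BL/6 replicate 2 included. The means were 0.494 ± 0.296 and 1.63 ± 0.645 (SD, n = 3). Ratios to miR-152-3p that do not overlap between the strains were common in these libraries, at 30.9% of the 450 other miRNAs tested. The ratio of miR-148a-3p to miR-148b-3p overlapped, at 1.85, 7.37 and 2.77 across C57BL/6 and 9.30, 9.74 and 5.06 in MRL/lpr. That of miR-152-3p to miR-148b-3p did too, at means of 7.69 ± 1.47 over the C57BL/6 and 5.09 ± 1.25 over the MRL/lpr libraries (SD, n = 3).

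**Figure D3:**
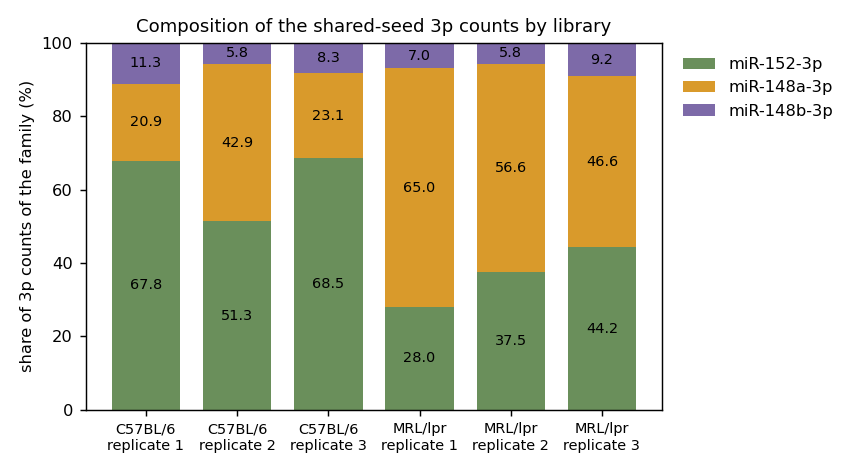
Share of each 3p strand in the summed 3p counts of the family (percent, vertical axis), 1 bar per library. miR-148a-3p takes 20.9% to 42.9% across C57BL/6 and 46.6% to 65.04% in the MRL/lpr libraries.

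The summed 3p level differed less than miR-148a-3p, since it also holds miR-152-3p and miR-148b-3p, whose levels differed less between the strains. The sum was 312, 458 and 247 CPM in the control strain and 551, 367 and 421 CPM in MRL/lpr, and C57BL/6 replicate 2 exceeded MRL/lpr replicates 2 and 3. Fitted as 1 entry in place of its members, the sum had a log2 fold change of 0.45 ± 0.27 SE, and 0.70 ± 0.24 without C57BL/6 replicate 2.

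In order of level, miR-152-3p led in C57BL/6, followed by miR-148a-3p and miR-148b-3p. The CPM ranges of the first pair overlapped through C57BL/6 replicate 2, and those of miR-148a-3p and miR-148b-3p did not. In MRL/lpr the order was miR-148a-3p, miR-152-3p and miR-148b-3p, and no neighbouring ranges overlapped. By mean CPM over all libraries they ranked 131 (miR-152-3p), 133 (miR-148a-3p) and 214 (miR-148b-3p) among the 1542 entries. Adapter ligation favours some miRNA ends, so levels of different miRNAs are less comparable than levels of 1 miRNA between libraries.

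The 5p strands were near the limit of detection and were not tested in the main edgeR fit. For miR-148a-5p the C57BL/6 counts were 0, 4 and 0, and the MRL/lpr counts 3, 3 and 2. A count of 0 allows up to 0.614 CPM in C57BL/6 replicate 1 and 0.467 CPM in replicate 3 (3 counts, counting error only). For miR-148b-5p the C57BL/6 counts were 1, 3 and 0, and the MRL/lpr counts 2, 3 and 1. For miR-152-5p every C57BL/6 library held 4 counts, against 2, 8 and 3 in MRL/lpr. The 3p strand was the major product of each hairpin in each library. Over all libraries the 5p strand made up 0.179% of the counts of the miR-148a hairpin (12 against 6701), 0.912% for miR-148b (10 against 1087) and 0.382% for miR-152 (25 against 6511).

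The log2 ratio of 5p to 3p CPM, with 1 CPM added to each, averaged -6.27 ± 0.56 over the C57BL/6 and -7.41 ± 0.50 over the MRL/lpr libraries for miR-148a (SD, n = 3). With so few 5p counts the added CPM sets the numerator, and the difference follows the 3p level. For miR-148b the ratios were -4.52 ± 0.35 and -4.62 ± 0.70, and for miR-152 they were -6.92 ± 0.23 and -6.55 ± 0.68, differences within the spread of the libraries.

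miR-148a-3p and the sum of leukocyte miRNAs were both lowest in C57BL/6 replicates 1 and 3, and their order among the other libraries differed. C57BL/6 replicate 2 had the highest sum, while MRL/lpr replicate 1 had the highest miR-148a-3p. The leukocyte list (miR-142a-3p, miR-142a-5p, miR-150-5p, miR-155-5p, miR-146a-5p and miR-342-3p; 6 of 6 detected, none at 0 in every library) summed to 6003, 27897 and 5818 CPM across C57BL/6 and to 10126, 9019 and 10752 CPM in MRL/lpr. All 6 were highest in replicate 2 among the C57BL/6 libraries. Most of each sum was miR-146a-5p, at 25574 CPM in C57BL/6 replicate 2 and 7314 to 8393 CPM in MRL/lpr. The granulocyte and macrophage list (miR-223-3p, miR-511-3p and miR-511-5p) summed to 243, 1173 and 250.4 CPM in the control strain and to 434, 399 and 370.5 CPM in MRL/lpr; miR-511-5p was at 0 in each MRL/lpr library. Among the C57BL/6 libraries miR-148a-3p and miR-152-3p were likewise highest in replicate 2, and miR-148b-3p was not. The part of leukocyte content in the miR-148a-3p difference was not tested.

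Within each library, the ratio of miR-148a-3p to single leukocyte miRNAs overlapped between the strains for some of them and not for others. miR-142a-5p, from a hairpin expressed across blood cells, had 75.1, 176 and 47.05 CPM across C57BL/6 and 245, 147 and 297 CPM in MRL/lpr. The ratio of miR-148a-3p to it was 0.869, 1.12 and 1.21 in the control strain and 1.46, 1.42 and 0.658 in MRL/lpr, and the strains overlapped. The ratio to miR-155-5p, a miRNA of activated immune cells, also overlapped, at 1.14, 1.92 and 1.12 across C57BL/6 and 2.06, 1.43 and 0.978 in MRL/lpr. So did the ratio to miR-142a-3p, at 1.90, 2.21 and 2.22 in the control strain and 2.48, 1.88 and 1.30 in MRL/lpr.

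The ratios to other leukocyte miRNAs did not overlap. Relative to miR-150-5p, a miRNA of mature B and T lymphocytes, miR-148a-3p stood at 0.107, 0.146 and 0.0857 across C57BL/6 and at 0.411, 0.216 and 0.155 in MRL/lpr. Relative to the granulocyte miRNA miR-223-3p it stood at 0.295, 0.193 and 0.243 in the control strain and at 0.892, 0.564 and 0.592 in MRL/lpr. Relative to miR-146a-5p, an NF-κB-induced miRNA, it stood at 0.0130, 0.00768 and 0.0120 across C57BL/6 and at 0.0427, 0.0284 and 0.0234 in MRL/lpr. Ratios to miR-148a-3p that do not overlap between the strains were seen for 39.1% of the 450 other miRNAs tested.

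**Figure D4:**
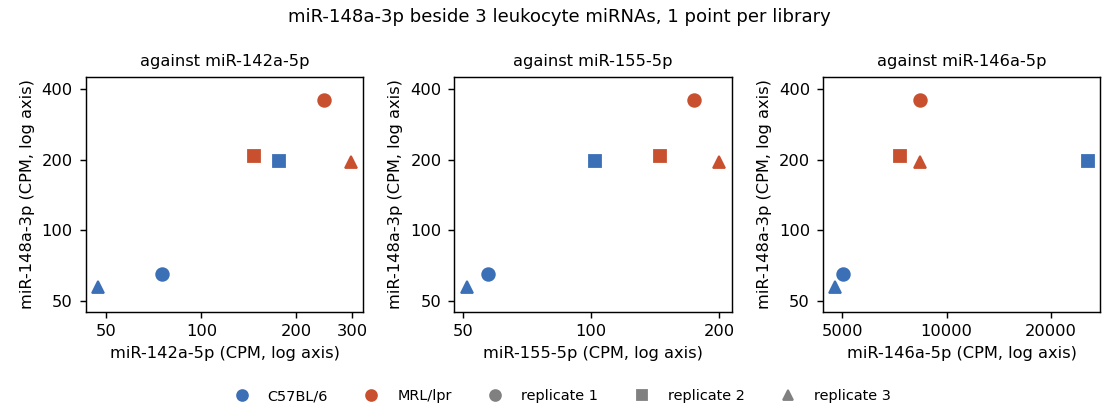
miR-148a-3p (vertical axis) against miR-142a-5p, miR-155-5p and miR-146a-5p (horizontal axes), all in TMM-scaled CPM on log axes, 1 point per library. With miR-142a-5p and miR-155-5p the C57BL/6 replicate 2 library lies among or near the MRL/lpr libraries, and with miR-146a-5p, at 25574 CPM, it lies apart from them.

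The miRNAs most like each member over the 6 libraries (Pearson correlation of log2(CPM + 1) among named miRNAs with a mean of at least 100 CPM, given as a description) differed between members. For miR-148a-3p they were miR-146b-5p (0.96), miR-155-5p (0.91) and miR-142a-5p (0.91). For miR-148b-3p they were miR-374b-5p (0.92), miR-30b-5p (0.87) and miR-29a-3p (0.84). For miR-152-3p they were miR-25-3p (0.85), miR-126a-5p (0.82) and miR-19b-3p (0.81). All points share libraries and scaling. Without C57BL/6 replicate 2 the miRNAs most like miR-148a-3p were miR-467a-5p, miR-21a-5p and miR-223-3p, so the list depends on that library. Those most like miR-148b-3p were then miR-96-5p, miR-374b-5p and miR-29c-3p, and those most like miR-152-3p were miR-30e-3p, miR-200b-3p and miR-126a-5p. Among the members themselves the correlation was 0.36 for miR-148a-3p with miR-148b-3p, -0.30 for miR-148a-3p with miR-152-3p and 0.27 for miR-148b-3p with miR-152-3p. Without C57BL/6 replicate 2 these correlations were 0.40, -0.58 and 0.50.

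Of 3 other miRNAs known to lower DNA methylation in lupus T cells through Dnmt1 or its control, none passed the edgeR test, where 6.21% of all miRNAs did, with 1 at an unadjusted p under 0.05. DESeq2 called 1 of them (51 miRNAs in all) and limma-voom 0 (21 in all). miR-21a-5p had 10643, 26463 and 9041 CPM in the control strain and 20881, 16093 and 17877 CPM in MRL/lpr, with C57BL/6 replicate 2 the highest of all. Without that library, the highest control, miR-21a-5p was called (edgeR adjusted p = 0.00592; log2 fold change 0.92 ± 0.16 SE), as were 11.5% of all miRNAs then tested. miR-29b-3p had 1049, 820 and 1112 CPM across C57BL/6 and 1544, 1418 and 1629 CPM in MRL/lpr, without overlap, as for 28.8% of all miRNAs (log2 fold change 0.62 ± 0.18, edgeR adjusted p = 0.0731). The remaining member, endothelial miR-126a-3p, had a log2 fold change of -0.28 ± 0.14.

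Among 17 miRNAs of B cell development and tolerance, all tested, 2 were higher and none was lower in MRL/lpr, where 4.21% of all miRNAs were called higher. The list is not separate from the leukocyte list and holds 5 of its 6 miRNAs (miR-142a-3p, miR-142a-5p, miR-150-5p, miR-155-5p and miR-146a-5p). One was miR-155-5p, at 57.1, 102 and 50.9 CPM in the controls against 174, 145 and 200.1 CPM in MRL/lpr (edgeR adjusted p = 0.0331). The other was miR-125b-5p, which acts in blood cell development and is made from more than 1 hairpin, at 355, 599.7 and 446 CPM in the controls against 885, 816 and 875 CPM in MRL/lpr (edgeR adjusted p = 0.0451). The most abundant of the others did not pass. miR-181a-5p, which tunes antigen receptor signalling, had a log2 fold change of -0.38 ± 0.14 (edgeR adjusted p = 0.133). Its strains did not overlap, as for 28.8% of all miRNAs tested. miR-34a-5p, which limits early B cell development, had a log2 fold change of -0.19 ± 0.16. The median log2 fold change of the list was 0.076, against -0.027 for all miRNAs tested. The count was 0 without C57BL/6 replicate 1 or 3 or MRL/lpr replicate 1 or 3. In those fits 15, 11, 19 and 5 miRNAs were called in all, against 28 with every library kept. It was 1 without MRL/lpr replicate 2, where 30 were called in all. Without C57BL/6 replicate 2 the count was 5, where 11.5% of 470 miRNAs were called and the median of the list was 0.39. Of those 5, 4 are also in the leukocyte list (miR-155-5p, miR-142a-3p, miR-142a-5p and miR-146a-5p), whose 6 members were all highest in that library among the controls, and the fifth was miR-125b-5p.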

How the data were processed

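Total RNA from kidney was made into small RNA libraries by adapter ligation, PCR and gel size selection then sequenced as DNA nanoballs, per the labels' protocols, which mention no molecular identifiers. Bowtie2, DESeq2 and GRCm38.p6 are named, without roles or versions, per the submitters' processing notes. The authors deposited 1 table of raw, unnormalized counts for mature miRNAs. Its columns were matched to samples by age, replicate number and a group prefix, C for C57BL/6 and LN for the MRL/lpr samples; the prefixes are not the titles.

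All miRNAs were fitted in R 4.3.3 with edgeR 4.0.16: filterByExpr (minimum count 10, minimum total 15), TMM scaling, a robust quasi-likelihood fit for group alone and Benjamini-Hochberg adjustment with a threshold of 0.05. The SE of a fold change is its size over the square root of F. Alternatives used limma 3.58.1, DESeq2 1.42.0, other scalings and filters, the replicate number as a block and each library left out. The members and the lists were chosen with earlier results of these data known. Named miRNAs were the members, the Dnmt1 list, up to 4 of the B cell list (called first, then most abundant) and the 3 most like each 3p member. Sequences and positions came from RefSeq and GENCODE M21. Counts of libraries of 1 strain differed by more than sampling allows (chi-square over degrees of freedom 126 to 747). This cannot show whether each library came from its own animal, and each was counted as 1 sample. Figures were drawn with matplotlib 3.10.9.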

Additional observations from a re-analysis of the deposited data

How the results depend on the processing

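The number of family members past the threshold (0 of 3) was 1 of 6 with no filter on low counts (64 miRNAs called in all). With DESeq2, which also fitted 6 members, the number was 1 (51 in all). It was 0 to 1 when each library was left out, the 1 being without C57BL/6 replicate 2 (54 in all). The number was 0 in the other settings run, including TMM without the leukocyte and myeloid lists, which was added after seeing the data. The B cell list count (2, where 28 miRNAs were called in all) was 4 with no filter, 4 with DESeq2 and 1 with limma-voom (21 in all). It was 0 with the replicate block (13 in all) and 0 to 5 when each library was left out (5 to 54 in all). In the 15 alternatives that keep the members separate, the log2 fold change of miR-148a-3p was above 0 in 15 (0.92 to 2.08), as was that of miR-148b-3p (0.048 to 0.47), and that of miR-152-3p was below 0 in 15 (-0.53 to -0.21). The 3 strands summed into 1 entry gave 0.45, the opposite sign to miR-152-3p alone, since the sum also holds miR-148a-3p. Library size alone moved the median of all miRNAs by 0.15 on the log2 scale. With the replicate block the log2 fold change of miR-148a-3p was 1.46 (edgeR adjusted p = 0.199). Same-numbered libraries did not deviate together (correlations -0.37, 0.034 and -0.37). Deviations were taken from the mean of each group of 3, so these correlations cannot exclude a pairing or shared batch. The 5p to 3p difference of miR-148a ran from -1.46 to -0.85, that of miR-148b from -0.50 to 0.14 and that of miR-152 from -0.026 to 0.57. Depth limits the 5p strands, with at most 8 counts in a library.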
